A study of Mus musculus with 8 samples.

Results

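The transcription factor p53, encoded by *Trp53*, and 9 of its direct targets (*Mdm2*, *Mdm4*, *Cdkn1a*, *Ccng1*, *Phlda3*, *Sesn1*, *Sesn2*, *Trp53inp1* and *Gadd45a*) were followed in the hippocampus of mice exposed to benzo[*a*]pyrene (BaP), a polycyclic aromatic hydrocarbon whose metabolites bind to DNA. The 10 genes were listed by symbol and found through the RefSeq accessions of the array probes, which gave 13 probes of 55681 and 10 genes of 20660 named ones. *Mdm4*, *Cdkn1a* and *Trp53inp1* had 2 probes each. Adult male mice of the transgenic Muta Mouse strain, which carries a bacterial reporter gene for mutations, were gavaged on 3 days with BaP in olive oil, 70 mg per kg of body weight each day (4 mice), or with the oil alone (4 control mice), and tissue was taken 24 hr after the last dose. Total RNA of each mouse was labeled with Cy5 and hybridized with a Cy3-labeled universal mouse reference RNA on a 2-color Agilent array. Values are log2 ratios of the hippocampus signal over the reference signal after normalization within each array. A value of 0 thus means the ratio usual for probes of that brightness on the array, and not equal raw signals. The hippocampus was profiled as a whole, and in such a sample fewer cells of a type and less RNA per cell cannot be told apart.

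In undamaged cells p53 protein is kept scarce by Mdm2, a ubiquitin ligase, and by its partner Mdm4, and DNA damage kinases release it from both. Released p53 binds DNA and raises the transcription of genes that halt the cell cycle, restrain growth signaling or promote cell death, and it raises *Mdm2* as well, which closes a negative feedback loop. Since p53 is governed largely through protein stability, transcripts of its targets are the usual readout of its activity, and *Cdkn1a* and *Mdm2* are the classical ones. The comparison of BaP-exposed with control mice asks whether transcripts of this program were higher in the hippocampus after exposure to a genotoxic compound.

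The sequences below show where the p53 consensus stands near the members' starts. A p53 binding site consists of a pair of 10-base units known as the p53 decamer, which reads the same on both strands. Promoter windows of 300 bases, 250 before and 50 after each RefSeq transcript start (build GRCm38.p6), were at hand for 9 of the 10 genes in 12 windows, and none was printed for *Trp53inp1*. The decamer was found in 6 of these 12 windows and in 8.36% of all 32851 windows. Each match is printed with its flanks, on the strand of the gene and 5′ to 3′, with the decamer in capitals.
*Trp53* (chr11:69580274-69580303, plus strand): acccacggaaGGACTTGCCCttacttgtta
*Mdm2* (chr10:117710925-117710954, minus strand): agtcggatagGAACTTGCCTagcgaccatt
*Cdkn1a* (chr17:29090896-29090925, plus strand): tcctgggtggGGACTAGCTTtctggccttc
*Cdkn1a* (chr17:29090918-29090947, plus strand): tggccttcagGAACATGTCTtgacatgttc
*Ccng1* (chr11:40755452-40755481, minus strand): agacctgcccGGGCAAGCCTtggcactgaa
*Sesn1* (chr10:41887256-41887285, plus strand): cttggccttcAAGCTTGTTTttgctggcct
*Gadd45a* (chr6:67037428-67037457, minus strand): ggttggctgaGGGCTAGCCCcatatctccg
Only the *Cdkn1a* window held a pair of decamers no more than 13 bases apart, which 0.0731% of all windows did. The search took exact matches alone. The 10 bases right after the second *Cdkn1a* decamer depart from the consensus at their first base only, and so were not marked. Which of these units p53 binds was not tested. The *Cdkn1a* pair lies just before the more upstream of its 2 annotated starts, while the window of the other start held no match. The windows of *Mdm4*, *Phlda3* and *Sesn2* held none either, which says only that these letters do not occur there. These matches are descriptions of sequence, and no binding was measured.

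The labels of 4 of the arrays conflict, since their title names one group and their source name the other. These are the 4 arrays in row 2 of the slide, while the 4 arrays in row 1 are labeled alike in both fields. Groups were taken from the titles, because the mouse numbers run with them (27 to 30 in control and 71 to 75 in BaP-exposed mice), and the results are also given within each row and by source name. Control mouse 1 differed from the rest in having 1483 spots marked as outliers, against 310 to 371, and its median Cy5 signal was the highest of the 8. The 7 hippocampal neuron markers examined were all well above background on all 8 arrays. By limma, with p-values adjusted after Benjamini and Hochberg, 3 of the 32600 tested probes were at or under 0.05 and changed at least 1.5-fold, all of them lower in BaP-exposed mice. Among marker lists of other cells, 6 of 7 tested erythroid genes were lower and 2 of them passed the test, with list means of 3.60 to 3.78 in control and 2.83 to 3.06 in BaP-exposed mice. By title these means were 3.78 and 3.60 in control and 2.91 and 2.83 in exposed mice of row 1, and 3.75 and 3.72 in control and 3.01 and 3.06 in exposed mice of row 2. All 10 choroid plexus genes were higher without any passing the test, and the list means overlapped (3.05 to 5.00 in control and 2.44 to 6.06 in BaP-exposed mice). Of the endothelial genes 6 of 9 were higher, of the oligodendrocyte genes 3 of 5, of the microglia genes 3 of 5 and of the astrocyte genes 0 of 4, and none of these passed.

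None of the 10 genes passed the test for a difference between BaP-exposed and control mice (0 of 10, where 0.0092% of all tested probes passed). Of the 10, 6 had higher and 4 had lower means after BaP, and their median log2 fold change was 0.0124, beside a median of -0.000108 over all 15090 tested genes. The lowest adjusted p of limma among them was 0.49, for *Trp53inp1*. At an unadjusted p of 0.05 in limma, *Trp53inp1* was higher and *Cdkn1a* lower, which is 2 of 10 genes where 8.76% of all tested probes reached it, 4.53% higher and 4.23% lower. The groups of mice did not overlap for *Trp53inp1* and *Ccng1*, both higher, where 5.06% of all probes did not overlap made up of 2.52% with the exposed mice above and 2.54% with them below.

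The precision of the arrays bounds the changes. The 95% confidence interval of limma's fit lay within a 1.5-fold change in either direction for all 12 tested probes of the 10 genes, as it did for 88.8% of all tested probes. The highest upper limit was a 1.42-fold increase, for *Trp53inp1*. For *Mdm2* the upper limit was a 1.16-fold and for *Phlda3* a 1.25-fold increase, and for *Cdkn1a* it was 0.987-fold, below the control level. These limits depended on the scaling, since with median centring the upper limits of *Mdm2*, *Phlda3*, *Ccng1*, *Sesn1* and *Trp53inp1* exceeded 1.5-fold, which left 5 of the 10 genes within it, and in slide row 2 alone the upper limit of *Trp53inp1* exceeded it. Each interval stands for its own probe and is not adjusted for the number of probes. The median standard error of the 10 genes was 0.109 on the log2 scale and that of all tested genes 0.107.

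**Figure D1:**
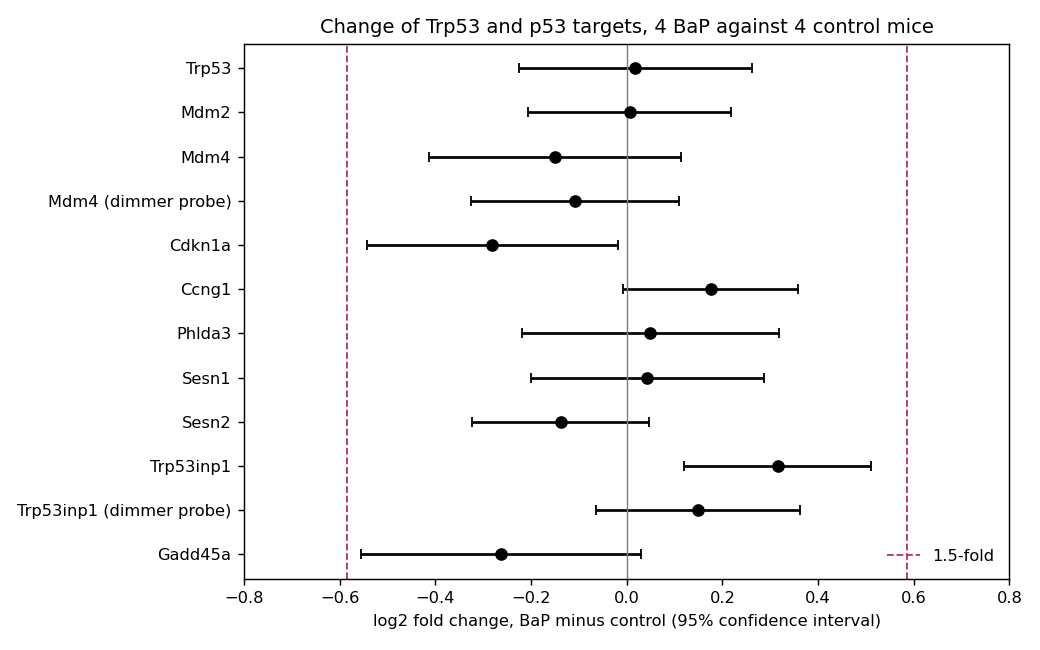
Log2 fold change of BaP-exposed over control mice (x axis) for the 12 tested probes of *Trp53* and 9 p53 targets (y axis), with 95% confidence intervals from limma (bars, 4 mice a group, and 3 control mice for the dimmer *Mdm4* probe). Dashed lines mark 1.5-fold changes, and on the loess scale plotted all 12 intervals end before them, the one of *Trp53inp1* reaching 1.42-fold and lying above 0.

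The level of p53's own transcript did not separate the groups. *Trp53* had log2 ratios of -1.33, -1.63, -1.58 and -1.47 in control mice 1 to 4 and of -1.55, -1.21, -1.56 and -1.60 in BaP-exposed mice 1 to 4. The groups overlapped over most of their range, and BaP mouse 2 stood above the other 3 exposed mice. The means were -1.50 ± 0.13 (SD, n = 4) and -1.48 ± 0.18 (SD, n = 4), a log2 fold change of 0.02 (standard error, SE, 0.11, limma adjusted p = 0.974), which was 0.10 in slide row 1 and -0.06 in row 2. The *Trp53* probe was dim, with a Cy5 signal of 124 to 210 over a background of at most 71, yet well above background on all 8 arrays. It was spotted 2 times on each array, and the median SD between these spots was 0.0693.

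The negative regulators of p53 also overlapped between the groups. *Mdm2*, the ubiquitin ligase and feedback target, had log2 ratios of -0.11, -0.09, -0.34 and -0.22 in control mice 1 to 4 and of -0.27, -0.04, -0.09 and -0.32 in BaP-exposed mice 1 to 4. The 2 groups covered nearly the same range, and the log2 fold change of 0.00675 (SE 0.10, limma adjusted p = 0.99) had an interval of -0.21 to 0.22. It was -0.06 in slide row 1 and 0.07 in row 2. *Mdm4*, which lacks ligase activity of its own and blocks the activation domain of p53, had ratios of 0.45, 0.27, 0.25 and 0.15 in control and of 0.34, -0.17, 0.23 and 0.12 in BaP-exposed mice. BaP mice 2 and 4 lay below all control mice, BaP mouse 2 by far the more, and BaP mice 1 and 3 lay among them. The log2 fold change was -0.15 (SE 0.12, limma adjusted p = 0.718) with all mice and -0.05 without BaP replicate 2, and it was -0.28 in slide row 1 and -0.02 in row 2. The dimmer *Mdm4* probe gave -0.11 (SE 0.10) over 7 arrays, since the scanner software had rejected its spot for control mouse 1. It was -0.04 without control replicate 4 and -0.17 without control replicate 3.

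Among the targets that restrain cell division, *Cdkn1a* and *Gadd45a* had lower means and *Ccng1* a higher mean in BaP-exposed mice. *Cdkn1a* encodes the kinase inhibitor p21, the main effector of the p53-dependent arrest in G1. Its log2 ratios were -3.23, -3.58, -3.001 and -3.19 in control mice 1 to 4 and -3.54, -3.42, -3.57 and -3.59 in BaP-exposed mice 1 to 4. Control mouse 2 fell among the exposed mice, and the other 3 control mice were above all exposed mice. The SD was 0.24 (n = 4) among control and 0.07 (n = 4) among exposed mice. The log2 fold change of -0.28 (SE 0.12, limma adjusted p = 0.551) corresponds to 0.823 of the control level, and an exact permutation test over the 70 assignments of the mice gave p = 0.114 (2-sided). This probe was spotted 10 times on each array with a median SD of 0.081 between spots. On 6 arrays 1 or more of its spots were marked as outliers and left out of this SD. Within slide row 1 the log2 fold change of *Cdkn1a* was -0.08, and within row 2, where the labels conflict, it was -0.49. By source names it was 0.21. The other *Cdkn1a* probe, designed to another transcript of the gene, was well above background in Cy5 on 1 of 4 control arrays and on 0 of 4 BaP arrays and was not tested.

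*Gadd45a*, a small stress protein that interacts with p21 and the replication clamp, had log2 ratios of -2.20, -2.55, -2.73 and -2.81 in control mice 1 to 4 and of -2.93, -2.73, -2.94 and -2.73 in BaP-exposed mice 1 to 4. Control mice 1 and 2 lay above all exposed mice, control mouse 3 was level with the highest of them (-2.726 against -2.732) and control mouse 4 lay among them. The log2 fold change was -0.26 (SE 0.13, limma adjusted p = 0.592), and without control replicate 1 it was -0.14. It was -0.45 in slide row 1, -0.07 in row 2 and -0.19 by source names. *Ccng1*, cyclin G1, which recruits a phosphatase to Mdm2 and is among the most regular p53 targets, had ratios of -0.38, -0.61, -0.38 and -0.54 in control and of -0.29, -0.37, -0.29 and -0.26 in BaP-exposed mice. Every exposed mouse was above every control mouse, by the narrow gap between -0.370 and -0.379. The log2 fold change of 0.18 (SE 0.08, limma adjusted p = 0.582) is a 1.13-fold level, and the exact permutation p of 0.0286 (2-sided) is the smallest that 4 mice against 4 can give. It was 0.17 in slide row 1 and 0.18 in row 2, and -0.00781 by source names.

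**Figure D2:**
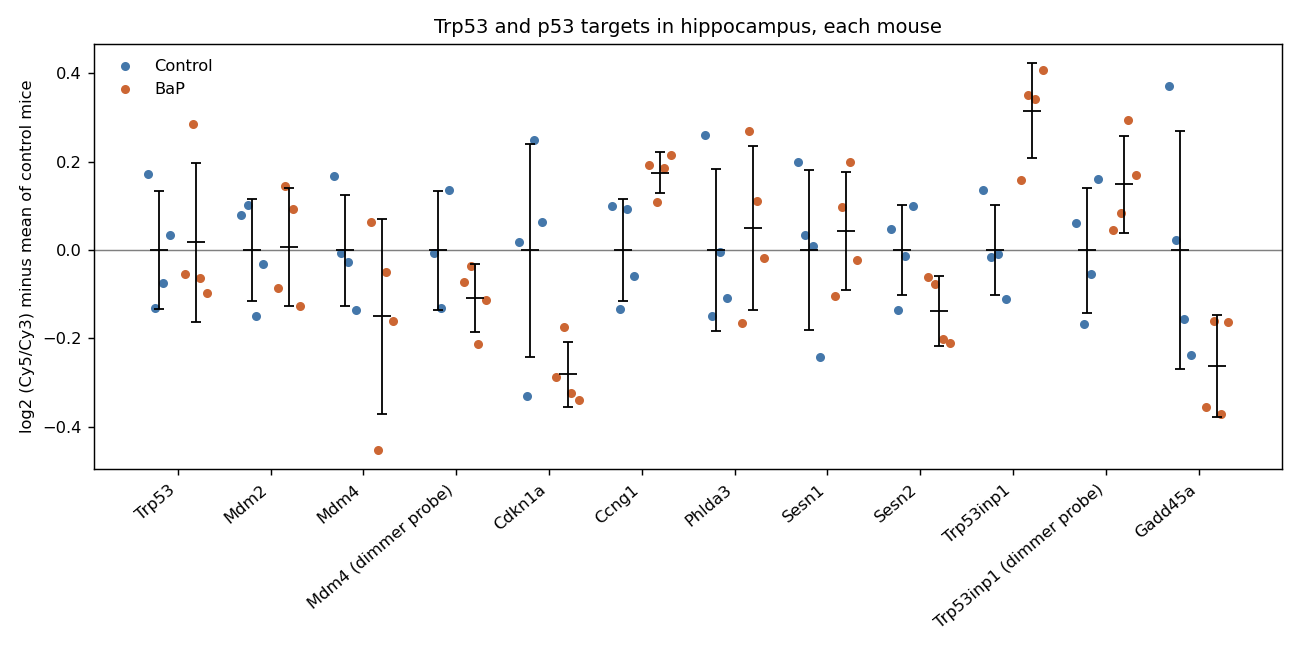
Log2 ratio of each mouse minus the mean of the control mice (y axis, log2 units) for the 12 tested probes of *Trp53* and its targets (x axis), with 1 point a mouse in order of replicate number, and group means with SD as bars (n = 4 a group, 3 control mice for the dimmer *Mdm4* probe). Only *Ccng1* and the brighter *Trp53inp1* probe show all BaP-exposed mice above all control mice, and the highest control value of *Gadd45a* is that of control mouse 1.

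Of the targets that act on growth signaling and stress survival, *Trp53inp1* had the highest log2 fold change and *Sesn2* the lowest. *Trp53inp1* encodes a nuclear and autophagy protein that promotes p53 phosphorylation. Its brighter probe had log2 ratios of -1.45, -1.60, -1.60 and -1.70 in control mice 1 to 4 and of -1.43, -1.23, -1.24 and -1.18 in BaP-exposed mice 1 to 4. All exposed mice were above all control mice, although BaP mouse 1 and control mouse 1 were nearly level. The log2 fold change of 0.32 (SE 0.09, limma adjusted p = 0.49) is a 1.24-fold level with an interval of 1.09- to 1.42-fold, and the exact permutation p was 0.0286 (2-sided), again the smallest possible. It was 0.20 in slide row 1 and 0.43 in row 2, and -0.12 by source names. The dimmer *Trp53inp1* probe, with an accession shared with the first, gave 0.15 (SE 0.10, limma adjusted p = 0.662), and its groups overlapped. Erythroid markers moved with the same groups, at the list means given above, and their part in the values of *Trp53inp1* and *Ccng1* was not tested.

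The sestrins restrain the growth kinase complex mTORC1 when amino acids are scarce or DNA is damaged. *Sesn1* had log2 ratios of 1.47, 1.31, 1.28 and 1.03 in control mice 1 to 4 and of 1.17, 1.37, 1.47 and 1.25 in BaP-exposed mice 1 to 4. The groups overlapped over most of their range, with a log2 fold change of 0.04 (SE 0.11, limma adjusted p = 0.932). It was -0.12 in slide row 1 and 0.21 in row 2. *Sesn2* had ratios of -0.47, -0.65, -0.53 and -0.42 in control and of -0.58, -0.60, -0.72 and -0.73 in BaP-exposed mice. Only control mouse 2 lay among the exposed mice, and the log2 fold change was -0.14 (SE 0.08, limma adjusted p = 0.648). It was -0.03 in slide row 1, -0.25 in row 2, where the labels conflict, and 0.11 by source names. *Phlda3*, which competes with the kinase Akt for membrane lipids, had ratios of -1.17, -1.58, -1.44 and -1.54 in control and of -1.60, -1.16, -1.32 and -1.45 in BaP-exposed mice. Its groups spanned the same range, with a log2 fold change of 0.05 (SE 0.12, limma adjusted p = 0.928) that was -0.00393 in slide row 1 and 0.10 in row 2.

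The mice differed among themselves in these genes. On the array of control mouse 1 all 10 genes were above the mean of the control mice, while on the other arrays 2 to 6 genes were. The median over the 10 genes was -0.82 in control mouse 1, -1.12 to -0.98 in the other control mice and -1.003 to -0.88 in BaP-exposed mice. The median log2 fold change of the 10 genes ranged from -0.04 without BaP replicate 2 to 0.05 without control replicate 1, so that its sign depended on single mice, and 0 genes passed the test with any 1 mouse left out. It was -0.04 in slide row 1, 0.02 in row 2 and -0.06 by source names. Over the 8 arrays, the genes whose log2 ratios ran most like those of *Cdkn1a* were *Cnpy4* (Pearson r = 0.92), *Zscan2* (0.91) and *Aldh8a1* (0.91), out of 14867 genes compared. With so many genes and 8 arrays such values are a description of these arrays.

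**Figure D3:**
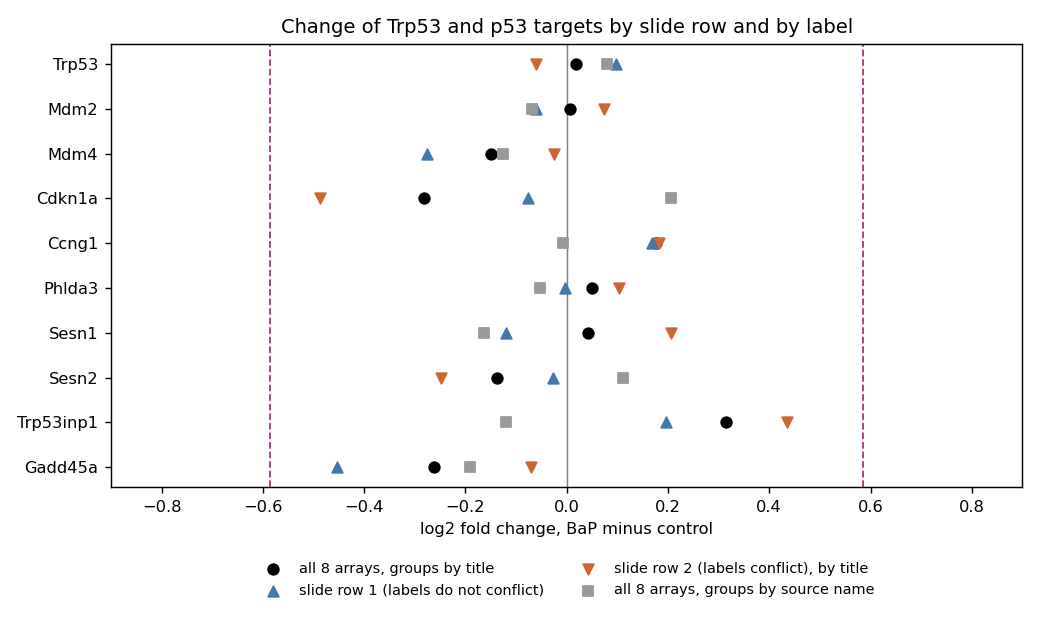
Log2 fold change of BaP over control (x axis) for the brightest probe of each of the 10 genes (y axis), from all 8 arrays grouped by title, from slide row 1 and slide row 2 alone (2 mice a group), and from all arrays grouped by source name. Dashed lines mark 1.5-fold changes. *Ccng1* has nearly the same value in both rows, 0.17 and 0.18, while *Cdkn1a* is at -0.08 in row 1 and -0.49 in row 2.

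The rest of the pathway was read from 3 further lists. The list of other p53 targets held 35 genes, and 32 could be tested, each read here from its brightest tested probe. After BaP, 17 had higher and 15 had lower means, 0 passed the test, and the list median was 0.00439 on the log2 scale. The lowest adjusted p of limma among these probes was 0.51, and 4 genes of 32 reached an unadjusted p of 0.05, 2 in each direction, where 8.76% of all tested probes did. Over all 37 tested probes of these genes, 6 reached it, 2 had groups that did not overlap and 0 passed the test. Of the genes that promote cell death, *Bax*, which permeabilizes mitochondria, had a log2 fold change of 0.05 (SE 0.12), *Bbc3*, which encodes Puma, of 0.07 (SE 0.13) and *Pmaip1*, which encodes Noxa, of 0.30 (SE 0.15), and all had overlapping groups. *Pmaip1* was at 0.35 in slide row 1, 0.25 in row 2 and 0.05 by source names. *Psrc1*, which acts on the mitotic spindle, had the lowest log2 fold change of the list, -0.37 (SE 0.14, limma adjusted p = 0.536). It was -0.43 in slide row 1, -0.32 in row 2 and -0.05 by source names. *Apaf1*, the scaffold of the apoptosome, had groups that did not overlap, as 5.06% of all tested probes did, at -0.20 (SE 0.09, limma adjusted p = 0.557). So did a dimmer probe of *Polk*, a translesion polymerase, at -0.21 (SE 0.09), whose brighter probe was at 0.06 (SE 0.09). A dimmer probe of *Tigar*, which lowers glycolysis, was at -1.24 (SE 0.62) and its brighter probe at 0.00566 (SE 0.09). Of the higher genes, *Ephx1*, a microsomal epoxide hydrolase that acts on BaP metabolites, was at 0.46 (SE 0.18) on its brightest probe and at 0.50 (SE 0.14, limma adjusted p = 0.494, the lowest of any probe of the list) on the other, and *Slc19a2*, a thiamine transporter, was at 0.32 (SE 0.11), all with overlapping groups. *Apaf1*, *Polk*, *Tigar*, *Ephx1* and *Slc19a2* are named after their values were seen. *Perp*, a desmosomal protein, had the highest log2 fold change of the list, 0.80 (SE 0.57), but its SD among BaP-exposed mice was 1.27 (n = 4). It was 1.43 without BaP replicate 1 and 0.49 without BaP replicate 3, and 0.19 in slide row 1 and 1.41 in row 2.

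*Perp* had log2 ratios of -1.33, -2.25, -0.86 and -2.46 in control mice 1 to 4 and of -2.80, -0.39, 0.00935 and -0.51 in BaP-exposed mice 1 to 4. BaP mouse 1 was the lowest of the 8 and the other exposed mice the highest. The mean of the choroid plexus list was 2.44 in BaP mouse 1 and 5.65, 6.06 and 5.08 in BaP mice 2 to 4, and 4.58, 3.46, 5.00 and 3.05 in control mice 1 to 4. All 10 choroid plexus genes were well above background on all 8 arrays. *Cdkn1c*, a paralog of *Cdkn1a* that encodes p57, followed the same order of high and low exposed mice, with ratios of 1.28, 3.70, 3.98 and 3.14 in BaP mice 1 to 4. Its log2 fold change of 0.65 (SE 0.51, limma adjusted p = 0.717) was below the SD of 1.21 (n = 4) among the exposed mice. It was 1.23 without BaP replicate 1, 0.42 without BaP replicate 2 and 0.33 without BaP replicate 3, and 0.17 in slide row 1 and 1.12 in row 2. The brightest *Ephx1* probe was at -0.51 in BaP mouse 1 and at 0.19, 0.37 and -0.06 in BaP mice 2 to 4. The part of choroid plexus tissue in the values of *Perp*, *Cdkn1c* and *Ephx1* was not tested.

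**Figure D4:**
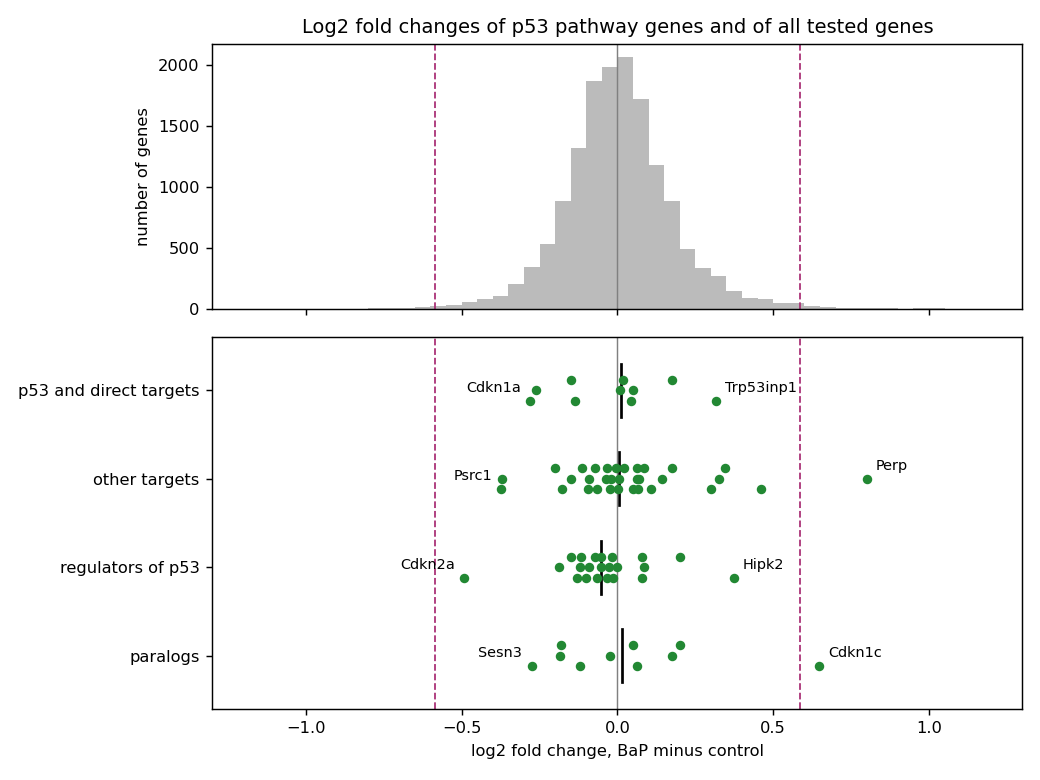
Upper panel, number of all 15090 tested genes (y axis) by log2 fold change of BaP over control (x axis). Lower panel, the same log2 fold change for each tested gene of 4 lists, with 1 point a gene, medians as vertical bars and the highest and lowest gene of each list named. Dashed lines mark 1.5-fold changes, and of the brightest tested probes plotted for the lists those of *Perp* and *Cdkn1c* lie beyond them, while dimmer probes such as that of *Trp73* at 0.63 are not plotted. Genes beyond 1.3 on either side are outside the axis.

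Of 24 regulators of p53, 22 were measured well enough for the test. The means of 5 were above and those of 17 below the control mice, and 0 passed the test, the list median being -0.05 on the log2 scale. Of all tested genes, 7539 had higher and 7551 had lower means in exposed mice. *Hipk2*, a kinase that phosphorylates p53, had log2 ratios of 1.07, 0.87, 1.06 and 0.81 in control mice 1 to 4 and of 1.12, 1.52, 1.44 and 1.23 in BaP-exposed mice 1 to 4. All exposed mice were above all control mice, with the highest log2 fold change of the list, 0.37 (SE 0.11, limma adjusted p = 0.496). It was 0.35 in slide row 1, 0.40 in row 2 and -0.02 by source names. The other tested *Hipk2* probe was at 0.00664 (SE 0.13), and its groups overlapped. *Cdkn2a*, the locus of p16 and of the Mdm2 inhibitor p19Arf, had ratios of -5.18, -5.46, -5.59 and -5.25 in control and of -5.96, -5.61, -6.10 and -5.77 in BaP-exposed mice. Its groups did not overlap either, and its log2 fold change of -0.49 (SE 0.13, limma adjusted p = 0.478) was the lowest. It was -0.47 in slide row 1, -0.52 in row 2 and 0.03 by source names. The other tested *Cdkn2a* probe was at -0.08 (SE 0.12), with overlap of the groups. *Atrip*, the partner of the kinase Atr, also reached an unadjusted p of 0.05 on its brightest probe, at 0.20 (SE 0.08). Over all 33 tested probes of the regulators, 5 reached that p and 5 had groups that did not overlap, where 8.76% and 5.06% of all tested probes did, and 0 passed the test. Among these were dimmer probes of *Trp53bp1*, a DNA break adaptor, at 0.26 (SE 0.10) with its brighter probe at -0.07 (SE 0.10), and of *Banp*, a nuclear matrix protein, at -0.23 (SE 0.08) with its brighter probe at 0.08 (SE 0.10). *Atrip*, *Trp53bp1* and *Banp* are named after their values were seen. Among 11 paralogs of the members and inhibitors related to *Cdkn1a*, 10 were tested, 5 were higher and 5 lower on their brightest probe, and 0 passed. Over all 13 tested probes of these genes 4 reached an unadjusted p of 0.05, where 8.76% of all tested probes did. The groups did not overlap for 2 of the 13, where 5.06% of all tested probes did not. Of the 4, 3 were the probes of *Trp73*, the p53 paralog p73. They were at 0.20 (SE 0.08) for the brightest, 0.42 (SE 0.15) and 0.63 (SE 0.18, limma adjusted p = 0.496), and the groups did not overlap for the last. The groups also did not overlap for the dimmer probe of *Trp63*, at 0.15 (SE 0.08), whose brighter probe was at -0.12 (SE 0.09). *Trp73* and *Trp63* are named after their values were seen. The lowest log2 fold change was that of *Sesn3*, the other sestrin, at -0.28 (SE 0.12, limma adjusted p = 0.568), and its groups overlapped.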

How the data were processed

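The authors deposited scanner intensities of each spot, with background and outlier marks (per the file headers, Agilent Feature Extraction 11.0.1.1), and a table of log2 ratios that the paper describes as LOWESS-normalized. The medians of the spots went through normexp background correction (offset 50) and loess within each array, with limma 3.58.1 in R 4.3.3. Outlier spots were treated as missing, controls dropped and repeated spots averaged by probe. A probe was fitted (lmFit, eBayes) where the scanner marked its Cy5 signal well above background on 4 or more of the 8 arrays. It passed at a Benjamini-Hochberg p of 0.05 with a 1.5-fold change. The brightest tested probe stood for a gene. Symbols came from a RefSeq table of GRCm38.p6, which named 27235 probes and was used for names alone. Promoters came from RefSeq too.

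The members and lists were chosen with earlier results of these data known. By rule, the genes named besides the members were *Bax*, *Bbc3*, *Pmaip1*, the highest and lowest log2 fold change of each pathway list, and the 3 genes most correlated with *Cdkn1a*. Other pathway genes named were chosen after their values were seen. Exact permutation tests were run on the 13 member probes and on the pathway genes, with a smallest p of 0.0286. The paper's analysis of variance for microarrays was not rerun, and a plain gene-wise F test was tried in its place. At the same adjusted p and fold change the paper reports far more transcripts for these arrays than passed here. The cause of this gap was not tested. The fit was tested on simulated data, where it recovered 93 of 100 changes of 1 log2 unit and 100 of 100 changes of 2. It also called 7 unchanged probes in each case. Smaller changes, such as those of the members, were not simulated. Summaries used Python 3.11.15 with pandas 2.3.3. The number of arrays limits the precision, and the offset pulls the ratios of dim probes such as *Trp53* toward 0.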

Additional observations from a re-analysis of the deposited data

Results flagged for a closer look

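BaP mouse 2 stood apart for *Trp53*, with a log2 ratio of -1.21 where BaP mice 1, 3 and 4 had -1.60 to -1.55. This distance took up 0.886 of the spread of the 4 mice. Among 41 groups of 4 examined over the named genes it was the only such case, where chance gives 2.05.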

How the results depend on the processing

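In all 23 alternatives 0 of the 10 genes and 0 of the other pathway genes passed the test. Of 483 values of single genes or probes under an alternative, 441 kept their direction and their side of the threshold. The other 42 changed sign, all of them short of the threshold, 16 of these by source names. Changing the filter on dim probes, adding a block, a robust fit or the F test leaves a log2 fold change as it was. Only the dimmer *Mdm4* probe moved under a block, as it lacks 1 array. The 441 include these values, whose direction was fixed in advance. The number of all tested probes that passed, 3, was 0 with subtracted background, in slide row 1 alone, in slide row 2 alone, by source names and with the gene-wise F test, 5 without a filter on dim probes, 6 in the Cy5 channel alone and 1 to 3 with each mouse left out (1 without control mouse 1, 3 or 4 or BaP mouse 2). The cause was not tested, except that a single row holds fewer arrays. With median centring the median over all tested probes was 0.17 and that of the 10 genes 0.23, and single probes moved by different amounts. *Mdm4* was then at 0.054, *Cdkn1a* at 0.00183 and *Sesn2* at 0.13, all below the median of all probes. Of the 10 upper confidence limits, 5 then exceeded 1.5-fold. In slide row 2 alone that of *Trp53inp1* did, and in the other alternatives 0 did, while both limits stayed within 1.5-fold for 8 to 10 genes. *Trp53* was at -0.024 with no background correction, -0.027 with subtracted background, -0.00892 in the authors' log ratios and -0.060 in slide row 2. *Mdm2* was at -0.000719 with subtracted background and *Bbc3* at -0.00267 in the Cy5 channel alone. In slide row 1 *Mdm2* was at -0.061, *Phlda3* at -0.00393, *Sesn1* at -0.12, *Bbc3* at -0.084 and *Bax* at -0.065. By source names *Mdm2* was at -0.068, *Cdkn1a* at 0.21, *Ccng1* at -0.00781, *Phlda3* at -0.054, *Sesn1* at -0.16, *Sesn2* at 0.11, *Trp53inp1* at -0.12 and -0.031 on its dimmer probe, and the dimmer *Mdm4* probe at 0.085. By source names *Perp* was at -0.61, *Bbc3* at -0.15, *Bax* at -0.12, *Hipk2* at -0.025, *Cdkn2a* at 0.025, *Cdkn1c* at -0.48 and *Sesn3* at 0.025. With each mouse left out, the median of the 10 genes ranged from -0.044 to 0.054, *Trp53* ranged from -0.071 to 0.075, *Mdm2* from -0.043 to 0.051, *Phlda3* from -0.024 to 0.14, *Sesn1* from -0.038 to 0.11, *Bbc3* from -0.027 to 0.16 and *Bax* from -0.054 to 0.10. With the replicate number as a block 3 probes passed and the median of the 10 genes was 0.0124. Mice of a shared number did not deviate together (r of -0.353 to 0.0314 over probes). So few arrays cannot exclude a pairing by number, and the main fit used none.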
